A study of Mus musculus with 18 samples.

Results

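CD11b+ myeloid cells were described by all 411770 regions that the deposited table of these cells lists, of 965237 regions listed for both cell types of the study. Every listed region was taken, and in each the mean methylation of WT cells was compared with that of *Dnmt3a*R878H/+ cells. Whole-genome bisulfite sequencing reads methylation base by base, since methylated cytosines are still read as cytosine after bisulfite treatment and unmethylated ones as thymine. Splenic CD11b+ cells and splenic CD4+ T cells were isolated on magnetic columns from *Dnmt3a*+/+ (WT) and *Dnmt3a*R878H/+ mice, with 4 mice in each group. CD11b is the integrin subunit of neutrophils, monocytes and macrophages, so a column-enriched fraction holds several myeloid types. All mice were of C57BL/6 background and 8 to 10 weeks old. The mutant mice were heterozygous for R878H, which replaces an arginine in the catalytic domain of DNMT3A. They carried the floxed R878H allele and *Vav1-iCre*, which is active constitutively in hematopoietic cells, so the mutation was present from early blood development and not induced in the adult. The methods use *Dnmt3a*+/+ as a joint name, given for transplantation controls, of mice with the Cre and no mutant allele and of mice with the floxed allele and no Cre. Which of these the WT mice of the sequencing were is not given in the sources used here. The labels hold 6 entries for *Dnmt3a*R878H/+ CD11b+ cells, because replicates 3 and 4 have a pair each. Entry names carry an S number, which lies in the 100s for 4 WT CD11b+ entries and 4 mutant CD11b+ entries, and in the 200s for the other 2 mutant entries. Of the CD4+ entries, 3 of 4 WT ones lie in the 100s and all 4 mutant ones in the 200s. Its part in the results was not tested.

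DNMT3A is one of the enzymes that place new methyl groups on cytosines followed by guanine (CpG), and DNMT1 copies existing methylation after each cell division. Most CpGs of mammalian cells are methylated, whereas CpG-rich stretches at the starts of genes, called CpG islands, usually are not. Mutations of the human residue that corresponds to R878 are frequent in clonal hematopoiesis and acute myeloid leukemia, and blood stem cells with such mutations expand.

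Each region has 1 mean per genotype in the table, in percent, and neither values of individual mice nor the number of reads are in it. No error could therefore be given, the q-values and p-values of the table were not used, and a difference is described by its size. A difference is given in percentage points (points), and a region is said to have lost or gained methylation where *Dnmt3a*R878H/+ cells were more than 20 points below or above WT cells. The study used that size of difference, but it also required more than 10 CpGs and a limit on the false discovery rate. Neither of these was applied here, so the counts are not calls by the study's rule. The means come from many cells, so a change in every cell and a change in the mix of cells cannot be told apart. The table does not name its groups, and the first was read as WT because WT is the more methylated genotype of the study, so every direction here rests on that reading. A region lists at least 10 cytosines, and those of both strands are counted separately. CpG density was therefore counted in the mm10 sequence as CpG dinucleotides per 100 bp, unless listed cytosines are named. A CpG that crosses an edge of the region was counted too. Promoter regions lie within 1 kb of the start of a protein-coding transcript in GENCODE M21, and the other regions were placed in exons, introns or between genes.

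The sequences below show the kinds of region that moved furthest. They are from the plus strand of mm10 (GRCm38), and capitals mark each CpG. The first of these lost methylation between genes near *Ripor2* (chr13:24520960-24521198), the second in an intron of *Arhgap31* (chr16:38700497-38700624) and the third in an exon of *G0s2* (chr1:193272576-193272674).
Ripor2: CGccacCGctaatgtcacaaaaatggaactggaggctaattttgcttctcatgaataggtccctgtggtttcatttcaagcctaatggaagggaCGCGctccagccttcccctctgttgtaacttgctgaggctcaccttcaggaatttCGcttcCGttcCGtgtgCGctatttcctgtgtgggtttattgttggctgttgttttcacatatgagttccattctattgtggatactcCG
Arhgap31: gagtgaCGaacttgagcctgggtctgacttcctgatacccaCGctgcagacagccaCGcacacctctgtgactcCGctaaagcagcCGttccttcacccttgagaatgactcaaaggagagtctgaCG
G0s2: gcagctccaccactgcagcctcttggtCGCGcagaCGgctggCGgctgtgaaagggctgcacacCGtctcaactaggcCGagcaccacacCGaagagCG
The next 3 gained methylation and lie wholly in exons, less than 1 kb downstream of the starts of *Mcl1* (chr3:95659789-95659979), *Hnrnpa0* (chr13:58127885-58127990) and *Gpx1* (chr9:108339912-108340041).
Mcl1: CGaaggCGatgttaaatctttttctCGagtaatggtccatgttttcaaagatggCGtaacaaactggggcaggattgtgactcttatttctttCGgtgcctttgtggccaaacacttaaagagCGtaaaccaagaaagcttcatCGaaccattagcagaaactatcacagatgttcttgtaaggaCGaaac
Hnrnpa0: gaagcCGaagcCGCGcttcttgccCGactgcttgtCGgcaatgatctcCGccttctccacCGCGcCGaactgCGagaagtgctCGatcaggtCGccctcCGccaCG
Gpx1: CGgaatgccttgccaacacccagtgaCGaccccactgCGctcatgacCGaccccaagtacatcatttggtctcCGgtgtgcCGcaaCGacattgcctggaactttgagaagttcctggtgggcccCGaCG
The *Ripor2* and *Arhgap31* regions hold 3.77 and 5.47 CpGs per 100 bp. The *Hnrnpa0* region holds 14.2, so that its capitals lie close together. These densities include CpGs that cross an edge, whereas the printed sequences mark 9, 6 and 14 CpGs that lie inside.

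The methylation of CD11b+ cells was lower in *Dnmt3a*R878H/+ mice across most of the listed genome, whereas gains lay mainly in CpG-rich regions that were nearly unmethylated in WT cells. Of the 411770 regions, 28832 lost more than 20 points (7%) and 859 gained more than 20 points (0.209%). Lost regions had a median of 67.1% in WT and 39.5% in *Dnmt3a*R878H/+ cells, whereas gained regions had a median of 0.713% in WT and 30.3% in mutant cells. The corresponding shares of CD4+ T cells were 6.23% and 0.00976%. The limit of 20 points cut through a continuous distribution, with the smallest loss inside it at 20.011 points and the smallest gain inside it at 20.017 points. Regions of exactly 20 points were left outside on both sides.

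Loss was most frequent at intermediate CpG density. The share of regions that lost more than 20 points was 1.90% (857 of 45150) under 1 CpG per 100 bp and 5.80% (12584 of 217051) at 1 to 2 CpGs. It was 10.8% (12503 of 115328) at 2 to 4 CpGs and 9.56% (2579 of 26971) at 4 to 8 CpGs. In the densest class, of 8 or more CpGs per 100 bp, it was 4.25% (309 of 7268). The share was thus highest in the middle and low at both ends. The median loss moved less and was between 6.52 and 6.75 points in the 3 sparsest classes, 4.73 points at 4 to 8 CpGs and 0.525 points at 8 or more.

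Gain rose with density without a turn. No region under 1 CpG per 100 bp gained more than 20 points, and 5 did at 1 to 2 CpGs, 48 at 2 to 4 and 208 at 4 to 8. At 8 or more CpGs, 598 regions gained, which is 8.23% of that class. Smaller differences moved the same way, since the mutant mean was the higher one in 2.17% of the sparsest regions and in 45.7% of the densest. With listed cytosines in place of dinucleotides, loss shares ran from 2.03% under 1 to 9.97% at 4 to 8 per 100 bp, and gains from 0 to 473 regions.

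**Figure D1:**
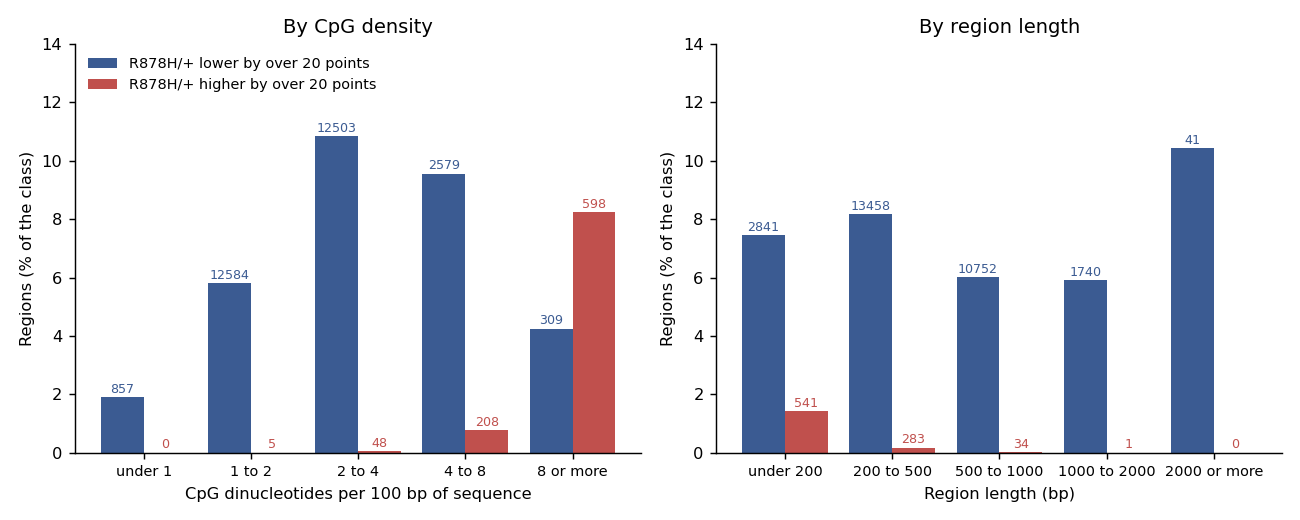
Share of CD11b+ regions (percent of each class) that lost or gained more than 20 percentage points in Dnmt3aR878H/+ cells, by CpGs per 100 bp of sequence and by region length in bp, with the number of regions above each bar. Loss peaked at 10.8% in the class of 2 to 4 CpGs, whereas gain reached 8.23% in the densest class.

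Region size went with density, since long regions were sparse (Spearman's rho of length with density -0.818 across 411768 regions with sequence, which are not independent and share their libraries). By length alone, the lost share was 7.44% (2841 of 38186) under 200 bp, 8.18% at 200 to 500 bp, 6.00% at 500 to 1000 bp and 5.90% at 1000 to 2000 bp. The 393 regions of 2000 bp or more lost in 10.4% of cases. Length alone thus separated the lost regions little. Within 1 class of density it separated them more. Among regions of 2 to 4 CpGs per 100 bp, the lost share was 8.38% under 200 bp, 9.79% at 200 to 500 bp, 17.6% at 500 to 1000 bp and 38.7% at 1000 to 2000 bp, the last over 773 regions. These longer regions were also less methylated in WT cells, with medians of 69.9% at 1000 to 2000 bp and 89.6% at 200 to 500 bp.

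Gains were short. Of the 859 gained regions, 541 were under 200 bp, 283 were of 200 to 500 bp, 34 of 500 to 1000 bp and 1 of 1000 bp or more. Their median length was 159 bp, and that of all listed regions 505 bp. In the densest class the share that gained was 6.8% under 200 bp and 22.3% (145 of 649) at 200 to 500 bp. These 2 groups also differed in WT level, with WT medians of 83.2% and 1.46%. Among regions under 10% in WT, of any density, the gained share fell with length. It was 13.2% under 200 bp, 6.61% at 200 to 500 bp and 3.49% at 500 to 1000 bp. The number of listed cytosines went with both directions. Regions of 31 or more cytosines lost in 36.1% of cases (468 of 1298) and gained in 2.85%, whereas those with the minimum of 10 lost in 6.47% and gained in 0.144%.

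The WT level of a region limited how much it could move, because a region under 20% cannot lose 20 points. Regions at 50% to 70% in WT had medians of 62.0% in WT and 45.3% in *Dnmt3a*R878H/+ cells, and 32.1% of these 38280 regions lost more than 20 points. Those at 90% to 100% in WT lost in 0.25% of cases, and those at 70% to 90% in 7.71%. The dependence on density remained within the middle class of WT level. There the lost share was 13.8% under 1 CpG per 100 bp, 27% at 1 to 2, 42.4% at 2 to 4, 46.3% at 4 to 8 and 32.5% at 8 or more. Length ran the other way at this WT level, with 42.1% lost under 200 bp and 26.8% at 1000 to 2000 bp.

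The 10 largest losses lay in regions that were at 72.9% or more in WT cells. WT cells were at 90.8% and mutant cells at 25.5% at chr6:88190451-88190898, between genes and 2993 bp upstream of *Gata2*, which encodes a transcription factor of blood stem and progenitor cells. It was 77.9% and 13.7% at chr6:52203675-52204998, a region of 97 listed cytosines across the start of *Hoxa5*, a homeobox gene. At the printed *G0s2* region, 543 bp downstream of its start, the values were 82.1% and 18.5%. *G0s2* encodes an inhibitor of the lipase that breaks down stored fat. The next were near *Lsm4* (75.2% and 11.6%), which encodes an RNA-binding protein of the splicing machinery, and at *Gdf1* (76.0% and 12.9%), which encodes a growth factor of the TGF-beta family. *Sec22b* (79.5% and 16.6%), *Btbd16* (89.1% and 26.2%), *5730596B20Rik* (84.3% and 22.4%), *Arhgap31* (72.9% and 11.4%) and *Ripor2* (86.2% and 25.8%) completed the 10 largest losses. *Sec22b* encodes a vesicle trafficking protein and *Arhgap31* a GTPase-activating protein. All 10 regions overlapped a CD4+ region that was also lower in *Dnmt3a*R878H/+ cells. Among regions with more than 10 listed cytosines, the largest loss under 1 listed cytosine per 100 bp was 39.0 points near *Gm10974* (72.4% and 33.4%). The largest gain in that sparsest class, with the same limit, was 6.38 points in *Mcts1*. Over the whole class, without that limit, 0.0391% of regions gained more than 10 points. At 1 to 2 listed cytosines per 100 bp, again among regions with more than 10, the largest loss was 52.5 points near *Sox13* (76.3% and 23.8%). *Sox13* is a SOX-family transcription factor gene.

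The largest gains lay in regions that were under 10% in WT cells, all but 1 of the 10 within 1059 bp downstream of a start. The largest was 303 bp downstream of a start of *Vav1*, where WT cells were at 1.96% and mutant cells at 55.2%. *Vav1* encodes a signaling protein of blood cells and its regulatory sequence drives the Cre of the mutant mice. The same place was 4.3% and 42.3% in CD4+ T cells, and whether the reads came from the gene or from the transgene was not tested. *Actb*, the gene of beta-actin, had 0.73% and 49.3%. *Hnrnpa0*, an RNA-binding protein gene, had 0.417% and 48.5%, and *Mcl1*, which encodes a survival factor of the BCL2 family, had 0.625% and 48.6%. These were followed by *Pim1* (0.225% and 47.8%), a kinase gene induced by cytokines, *Gpx1* (0.688% and 47.8%), which encodes a glutathione peroxidase, and *Sorl1* (1.20% and 48.2%), a sorting receptor gene. *Cebpb* (0.648% and 47.5%) encodes a transcription factor of granulocytes and macrophages, and *Zfp36* (2.25% and 48.6%) an RNA-binding protein that shortens the life of inflammatory transcripts. The remaining region lay 28152 bp upstream of the nearest start, of *Riok2*, a kinase gene of ribosome assembly, with 6.75% and 53.2%. Mutant means of the 10 regions thus lay between 47.5% and 55.2%. Of these 10, *Vav1* was the only one to overlap a listed CD4+ region.

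Around gene starts the 2 directions lay in different places. The lost share was highest 500 bp to 1 kb upstream of a start, at 14.1% of 4805 regions, and was 13.5% of 9126 regions at 1 to 2 kb downstream. It fell to 5.82% more than 10 kb upstream. Gains lay mainly inside the gene. Of 5995 regions under 500 bp downstream of a start, 448 gained (7.47%), against 65 of 5120 (1.27%) under 500 bp upstream and 6 of 4805 (0.125%) at 500 bp to 1 kb upstream. At 500 bp to 1 kb downstream 152 of 5443 gained (2.79%), and at 1 to 2 kb downstream 79 of 9126 (0.866%). Under 500 bp downstream, 3 of 6073 regions of CD4+ T cells gained. Across all 26248 promoter regions of CD11b+ cells the median was 64.9% in WT and 47.5% in mutant cells, with 3278 losses and 696 gains. Taken region by region, the median loss at promoters was 7.98 points (interquartile range over regions 3.17 to 14.4). Introns held 12633 losses and 23 gains. Between genes there were 10442 losses and 46 gains.

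**Figure D2:**
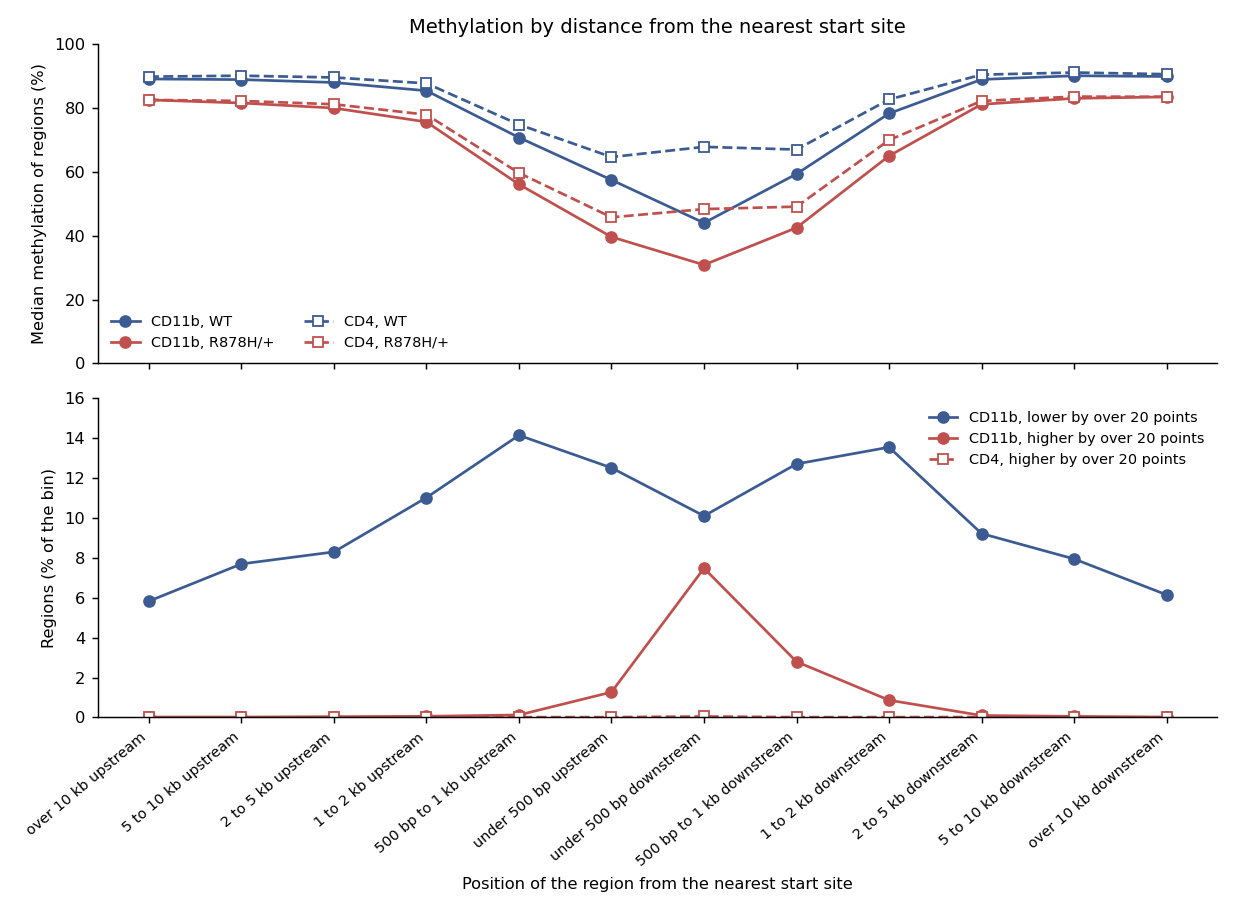
By distance and side of the nearest protein-coding transcription start, the upper panel plots the median methylation of listed regions (percent) in each genotype of CD11b+ and CD4+ cells, and the lower panel the share of regions (percent) that were lower or higher by more than 20 percentage points in Dnmt3aR878H/+ cells, with CD4+ losses not drawn. CD11b+ gains reached 7.47% under 500 bp downstream of the start, where 3 CD4+ regions gained.

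CpG-dense regions that were nearly unmethylated in WT cells were mostly higher in mutant CD11b+ cells where they held exon bases. In CD11b+ cells, 2570 regions of 8 or more CpGs per 100 bp were under 10% in WT, with a median of 0.894% in WT and 7.75% in *Dnmt3a*R878H/+ cells. The mutant mean was the higher one in 76.7% of these, and 570 regions gained more than 20 points (22.2%). By exon content, a split described below, it was the higher one in 88.8% of wholly exonic and 77.0% of partly exonic regions. In the 659 regions without exon bases it was the higher one in 50.5%, with medians of 1.77% in WT and 2.10% in mutant cells. In CD4+ T cells, 1533 regions met the same limits of density and WT level, with medians of 3.08% and 2.55%, and none gained more than 20 points. The tables do not list the same regions, and the 125 matched ones that were under 10% in WT in both cell types had medians of 2.45% in both genotypes of CD11b+ cells, with 5 gains. Among promoters of the densest class, 523 of 2500 gained (20.9%), with medians of 1.07% in WT and 13.2% in mutant CD11b+ cells. Taken region by region, their median difference was 4.75 points, with the mutant higher.

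The gained regions also lay in exons. The split by exon content was chosen after the values were seen, and it uses the share of a region's bases in protein-coding exons of GENCODE M21. Of the 859 gained regions 590 lay wholly in exons (68.7%) and 13.6% held no exon base. Over all listed regions 3.38% lay wholly in exons, and over lost regions 2.91%. Among CD11b+ regions under 10% in WT, 573 of 1931 wholly exonic regions gained (29.7%), against 140 of 1636 partly exonic regions (8.56%) and 67 of 4848 regions without exon bases (1.38%). The median of wholly exonic regions was 0.985% in WT and 12.1% in mutant cells. Regions without exon bases had medians of 3.95% and 2.30%, so that the mutant was lower there.

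The order by exon content was seen in each class of density. At 8 or more CpGs per 100 bp, 32.2% of wholly exonic regions gained (451 of 1399), against 15.2% of partly exonic regions and 6.22% of regions without exon bases (41 of 659). At 4 to 8 CpGs the shares were 25.9%, 6.86% and 1.17%, and under 4 CpGs 9.47%, 3.17% and 0.241%. Further than 1 kb from a start, 16.6% of wholly exonic regions under 10% in WT gained (79 of 475), against 0.759% of those without exon bases (24 of 3160). The direction was different where WT cells were methylated. At 90% or more in WT and 4 or more CpGs per 100 bp, wholly exonic regions and regions without exon bases both had a median difference of 3.23 points, with the mutant lower. In CD4+ T cells, 0 of 921 wholly exonic regions and 1 of 5588 regions without exon bases gained more than 20 points, too few to give an order. The CD4+ mutant mean was the higher one, by any amount, in 42.8% of wholly exonic regions and 29.3% of regions without exon bases. For CD11b+ cells these shares were 82.4% and 28.6%. The region length, GC content and listed cytosines moved with exon content too. GC content had a median of 66.7% in wholly exonic regions and 52.7% in regions without exon bases, all under 10% in WT, and the gained share by GC content ran from 1.67% under 50% to 24.6% at 70% to 75%. A further measure was the share of a region's CpG cytosines on both strands that were listed. Its median was 46.2% in gained regions, 54.5% in all regions under 10% in WT and 71.4% in all regions. Among regions of 8 or more CpGs per 100 bp and under 10% in WT, it was 43.3% with a gain and 50% without. The part of these properties in the gains was not tested.

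**Figure D3:**
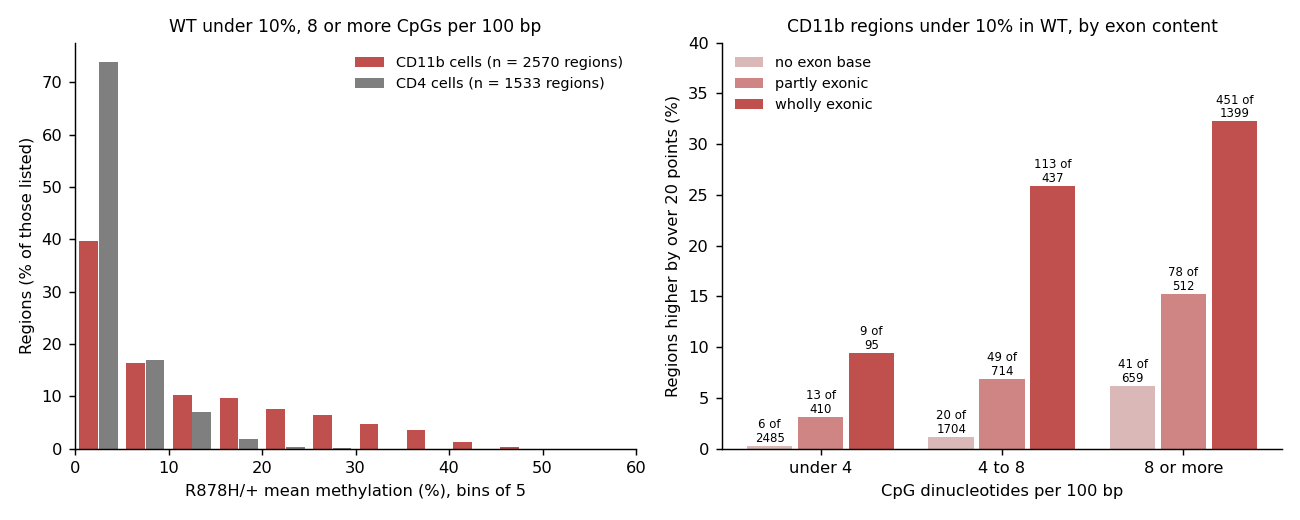
Regions under 10% methylation in WT cells, with the distribution of the mutant mean (percent) in the densest class of CD11b+ and CD4+ cells on the left, and on the right the share of CD11b+ regions (percent) that gained more than 20 percentage points, by CpG density and exon content, with counts above the bars. In CD11b+ cells the share was 29.7% in wholly exonic regions and 1.38% in regions without exon bases.

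Of the 780 gains from under 10% in WT, 576 had a mutant mean above 25%. The highest was 55.2%, and 2 regions exceeded 50%. The means do not show which mice or which cells carried the methylation. Of the 859 gained regions, 79 were at 10% or more in WT, among them 20 at 50% or more. The gained regions lay on 20 chromosomes, with shares from 0.121% of the regions of chromosome 1 to 0.318% of those of chromosome 11. A lost region lay within 2 kb of 177 gained regions (20.6%). For dense regions under 10% in WT, with 8 or more CpGs per 100 bp, the corresponding share was 22.6% with a gain (129 of 570) and 24.9% without. Over all listed regions it was 17.0%.

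At the level of genes, 13331 protein-coding genes had a listed region within 1 kb of a start, of which 2840 lost (21.3%) and 665 gained (4.99%) more than 20 points in at least 1 such region. In CD4+ T cells 3645 of 14563 lost (25%) and 6 gained (0.0412%). In CD11b+ cells 100 genes had both a lost and a gained promoter region, which is 15.0% of the 665. The gene lists below are described by the same counts, and their shares are to be read beside 21.3% and 4.99%. The number of promoter regions per gene also moved these counts, with a median of 2 over all genes.

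The marker lists of the sorted cells were checked in WT mice first. The promoters of granule and antimicrobial genes had a median of 63.0% in CD11b+ and 77.6% in CD4+ cells, and 12 of 15 genes measured in both were lower in CD11b+ cells. Myeloid surface receptors were lower in CD11b+ cells at 15 of 20 genes, with medians of 54.5% and 69.4%. T cell markers were lower in CD11b+ cells at 2 of 9 genes, with medians of 48.1% and 14.6%. Over all genes with a listed promoter region, the WT medians were 58.8% in CD11b+ and 65.9% in CD4+ cells, so that promoters were the less methylated ones in CD11b+ cells generally. Myeloid transcription factors were lower in CD11b+ cells at 7 of 13 genes and osteoclast genes at 5 of 12. Lists that are not markers of a mature cell type varied too. Inflammatory mediators were lower in CD11b+ cells at 11 of 14 genes and stem and progenitor regulators at 14 of 20. Genes of DNA methylation were lower there at 2 of 8 and imprinted loci at 5 of 11. B cell markers were lower in CD11b+ cells at 4 of 5 genes (medians 41.6% and 61.6%) and NK cell markers at 2 of 3, and the part of such cells in the means was not tested. *Itgam* itself, which encodes CD11b, had 1 listed promoter region of 79.4% in WT and 78.8% in mutant cells, 161 bp from a start.

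Myeloid transcription factors gained at 7 of 18 measured promoters (38.9%) and lost at 3 (16.7%), against 0 and 6 of 16 in CD4+ T cells. The gained regions of *Cebpb*, *Cebpd* and *Id2* lay wholly in exons, and that of *Zeb2* to 85.7%. Gains were frequent in such sequence generally. Of wholly exonic regions under 10% in WT, with 8 or more CpGs per 100 bp and within 1 kb downstream of a start, 375 of 1009 gained (37.2%). Whether the list differed from regions of that kind was not tested. The counts of the 2 cell types rest on different regions. The gained regions of *Cebpb*, *Cebpd*, *Zeb2* and *Id2* overlapped no listed CD4+ region, and *Cebpa* and *Klf4* had no listed CD4+ promoter region. The CD11b+ losses depended on the limits, with 9 genes gained and 8 lost within 2 kb of a start, and 9 gained and 10 lost above 10 points. *Cebpb* had the largest gain of the list, from 0.648% to 47.5%, and *Cebpd*, a related factor induced in inflammation, had 1.35% in WT and 38.8% in mutant cells. *Id2*, which encodes an inhibitor of helix-loop-helix factors, had 0.625% and 33.4%. *Zeb2*, a zinc finger gene of monocyte and dendritic cell development, gained in a region across a start (0.463% and 34.6%) and lost in a region 972 bp upstream of another (78.7% and 56.0%). Further gains, named after their values were seen, were at *Klf4* (0.405% and 32.9%) and *Cebpa* (2.02% and 32.3%). *Klf4* encodes a factor of monocytes and macrophages, and *Cebpa* the factor without which granulocytes do not form. *Nr4a1*, a nuclear receptor gene of patrolling monocytes, lost in a region 497 bp upstream (54.3% and 24.6%), and *Bach1*, a repressor gene of heme metabolism, in a region 634 bp upstream (33.2% and 9.87%). The most gained region of each of the 7 genes was under 10% in WT, and the most lost region of each of the 3 genes above 30%.

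Granule and antimicrobial genes lost at 4 of 15 promoters and gained at none. Among the lost ones, *Prtn3* (63.8% and 27.9%) and *Elane* (64.1% and 39.4%) encode serine proteases of neutrophil granules. *S100a8* (63.0% and 37.1%) encodes a calcium-binding protein that neutrophils release. Of the myeloid surface receptors 4 of 21 lost and 1 gained. The losses were at *Csf3r* (59.0% and 26.5%), the receptor of granulocyte colony-stimulating factor, at the Fc receptor genes *Fcgr1* (52.9% and 29.9%) and *Fcgr4* (65.3% and 42.7%), and at *Csf2rb* (72.7% and 51.3%), the shared beta chain of cytokine receptors. *Cd14*, the co-receptor of lipopolysaccharide, gained from 0.484% to 38.7% in a wholly exonic region 833 bp downstream. Both lost shares were near that of all genes, 26.7% and 19% beside 21.3%.

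Inflammatory mediators lost at 5 of 15 promoters (33.3%) and gained at none. *Il18* (58.6% and 30.2%) encodes a cytokine that inflammasomes activate, *Il10* (51.3% and 26.3%) and *Tgfb1* (31.1% and 7.65%) encode anti-inflammatory cytokines, and *Il1rn* (47.9% and 23.2%) encodes the antagonist of the interleukin 1 receptor. The fifth was *Il23a* (67.9% and 45.2%), which encodes a subunit of interleukin 23. Of 17 measured in CD4+ T cells, 2 lost. Osteoclast genes, read here because osteoclasts come from the myeloid lineage, also lost at 5 of 15 promoters. *Acp5*, the gene of tartrate-resistant acid phosphatase, had 76.1% in WT and 32.8% in mutant cells, a loss of 43.2 points. *Ocstamp* (52.5% and 26.4%) is needed for osteoclast fusion, *Mitf* (71.4% and 45.8%) and *Nfatc1* (62.4% and 38.8%) encode transcription factors of osteoclasts, and *Tnfsf11* (84.5% and 62.7%) encodes the cytokine RANKL. *Il23a* and *Tnfsf11* were named after their values were seen. Osteoclast genes of CD4+ T cells lost at 7 of 13 promoters.

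Stem and progenitor regulators had the largest share of lost promoters among the lists with more than 5 measured genes. Of 20 genes, 13 lost (65%) and 3 gained, and in CD4+ T cells 15 of 22 lost and none gained. Besides *Hoxa5*, the largest losses were at *Runx1* (84.5% and 27%), which encodes a transcription factor of definitive hematopoiesis, *Hoxa7* (68.3% and 25.6%), and *Mecom* (77.7% and 36.3%), a stem cell factor gene. The gains were in other regions of *Runx1* (1.20% and 30.8%), *Fli1* (2.57% and 31%) and *Lmo2* (0.25% and 26.3%), which encode transcriptional regulators of blood formation. These 3 gained regions overlapped no listed CD4+ region. *Runx1* thus held a lost region and a gained region in its promoters, 1 highly methylated and 1 unmethylated in WT cells. Counted over whole genes and 10 kb on either side, 299 of 1255 regions of this list lost (23.8%), against 8.10% over all genes. That share was 16.9% for granule genes, 14.5% for myeloid transcription factors, 13.3% for osteoclast genes and 10.4% for myeloid surface receptors. Inflammatory mediators were at 6.19%.

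**Figure D4:**
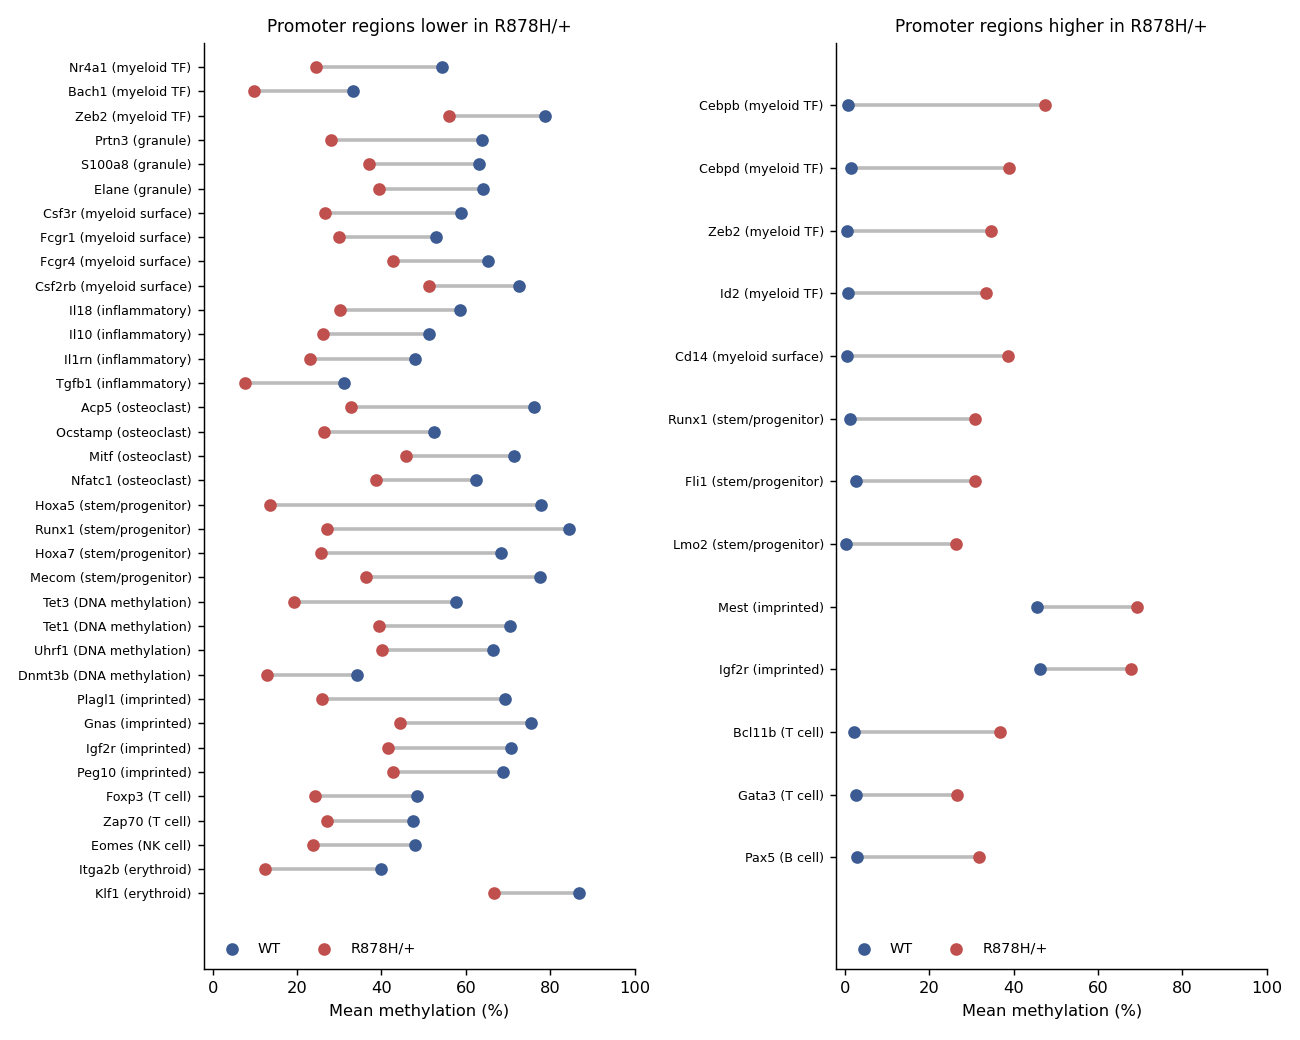
Methylation in percent of the promoter regions named for each gene list, in WT and in Dnmt3aR878H/+ CD11b+ cells, with 1 line per region. Lost regions started between 31.1% and 86.9% in WT, and gained regions under 10% apart from the imprinted Mest and Igf2r.

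Among the genes of DNA methylation itself, 4 of 8 lost at a promoter and none gained. They had a median of 3.5 promoter regions per gene, against 2 over all genes, and 3 of 9 lost in CD4+ T cells. *Tet3* (57.7% and 19.2%) and *Tet1* (70.4% and 39.4%) encode enzymes that oxidize methylcytosine, *Uhrf1* (66.4% and 40.2%) the protein that guides DNMT1, and *Dnmt3b* (34.2% and 12.8%) the sister enzyme of DNMT3A. *Dnmt3a* had no promoter region past 20 points, with 93.3% and 78.0% in the one that moved most. In and around *Dnmt3a*, 7 of 55 regions lost, the furthest at chr12:3871745-3871918 in an intron, with 56.9% in WT and 13.4% in mutant cells. The table holds no base at the mutated codon, so the genotype itself was not checked.

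Markers of other cell types were described by the same counts. T cell markers lost at 3 of 13 promoters, among them *Foxp3* (48.4% and 24.3%) and *Zap70* (47.6% and 27%), and gained at *Bcl11b* (2.1% and 36.7%) and *Gata3* (2.54% and 26.7%), which encode factors of T cell development. B cell markers lost at none of 7 and gained at *Pax5* (2.85% and 31.7%), the factor of B cell identity. NK cell markers lost at 1 of 3, *Eomes* (47.9% and 23.9%), and erythroid and platelet markers at 3 of 4, among them *Itga2b* and *Klf1*. Gains were therefore not limited to genes of the myeloid lists. Imprinted control loci lost at 4 of 11 promoters, with the furthest at *Plagl1* (69.3% and 25.9%), and *Mest* (45.4% and 69.3%) and *Igf2r* (46.3% and 67.8%) gained. These loci had a median of 5 promoter regions per gene. In CD4+ T cells 5 of 12 lost and 2 gained.

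Around whole genes, 10012 of 19767 protein-coding genes had at least 1 lost region in the gene or within 10 kb (50.7%) and 1119 a gained one (5.66%). In CD4+ T cells the shares were 55% and 0.206%. The most lost regions were counted at *Gm20388* (219 of 1834) and *Fgfr2* (65 of 704), whose annotated spans reach over other genes. They were followed by *Arid1b* (53 of 208), which encodes a subunit of the SWI/SNF chromatin remodeler, *Gse1* (48 of 193) and *Etv6* (44 of 178), which encodes an ETS repressor needed by blood stem cells. The lost share in these 3 genes was 25.5%, 24.9% and 24.7%, beside 8.10% of regions over all genes. In CD4+ T cells, 37 of 218 regions lost at *Arid1b*, 39 of 225 at *Gse1* and 48 of 196 at *Etv6*. Lost regions were mostly solitary. Joined where they lay within 1000 bp of each other, 3601 of the 28832 fell into 1683 runs of 2 or more (12.5%). The longest run held 8 regions over 8893 bp near *Dapp1*, an adaptor gene of B cell receptor signaling, with mean methylation of 55.7% in WT and 26.5% in mutant cells. Runs of 5 regions lay at *Hoxa5*, *Runx3* and *Prdm16*, among others.

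Direct comparison with CD4+ T cells was possible where regions of the tables overlapped by at least 50% of each other, which paired 136879 regions (33.2% of CD11b+ regions). Of these, 17504 lost in CD11b+ cells (12.8%), 17819 in CD4+ cells (13%), and 11156 in both. The shared regions are 63.7% of the CD11b+ losses and 62.6% of the CD4+ losses. The loss of CD11b+ cells minus that of CD4+ cells had a median of -0.300 points (interquartile range over regions -3.28 to 2.63), so that loss was about as large in both cell types. It was more than 20 points larger in CD11b+ cells at 274 regions and in CD4+ cells at 489. The WT level went with the difference. Where WT CD11b+ cells were at least 30 points more methylated than WT CD4+ cells (551 regions), CD11b+ cells lost a median of 5.22 points more, and where they were at least 30 points less methylated (1404 regions) they lost 4.19 points less. No test of these differences was made, since each cell type has 1 mean per genotype.

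**Figure D5:**
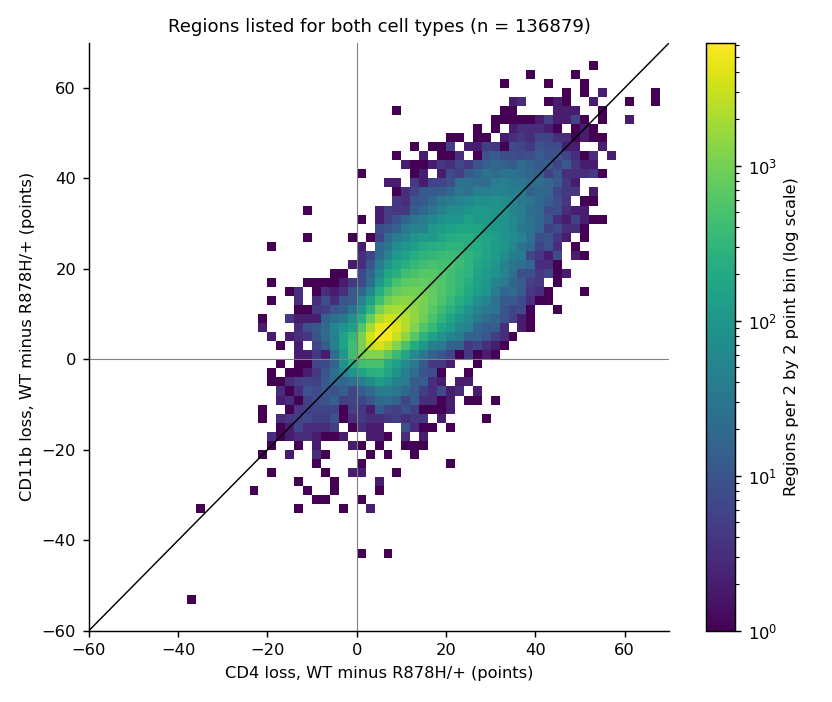
Loss in CD11b+ cells (vertical) against loss in CD4+ cells (horizontal), both as the WT mean minus the mutant mean in percentage points, over the 136879 regions that overlap by at least 50% of each other, with color for the number of regions per bin on a log scale and a line where both are equal. The CD11b+ loss minus the CD4+ loss had a median of -0.300 points, with 274 regions above 20 points and 489 below -20 points.

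Regions with the largest difference were of different kinds on the 2 sides. CD11b+ cells lost more at an exon of *Kcnn4*, a calcium-activated potassium channel gene, with 79.6% in WT and 25% in mutant CD11b+ cells and 22.5% and 12.5% in CD4+ cells. Near *Rnf7*, which encodes a subunit of ubiquitin ligases, CD11b+ cells had 52.0% and 11.8%, and CD4+ cells 6.90% and 6.79%. In an intron of *Rnf157* they were 77.8% and 44.1%, and the CD4+ mean was higher in mutant cells (42.4% and 52.9%). *Cnot10* and *N4bp2* made up the 5, both in introns, and were also higher in mutant CD4+ cells. At the other end, 5 regions were higher in mutant CD11b+ cells. Near *Nemf* the values were 0.635% and 44.5%, against 10.7% and 3.83% in CD4+ cells, and in an exon of *Srgap2* 1.35% and 44.3%, against 1.70% and 1.23%. At the promoter of *Hmga1b*, CD11b+ cells had 16.8% and 39.1%, and CD4+ cells 26.4% and 4.85%. *Sema4d* (53.9% and 66%) and *Gfra1* (49.0% and 58.3%) were higher in mutant CD11b+ cells by less than 20 points and lower in mutant CD4+ cells.

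Lost and gained regions were listed in CD4+ cells to different degrees. Of the CD11b+ losses, 26404 overlapped a CD4+ region (91.6%), whereas 106 of the 859 gains did (12.3%), and 58.8% of all CD11b+ regions. Among matched regions, 39 gained in CD11b+ cells, with medians of 15.8% in WT and 44.5% in mutant cells. The same 39 had medians of 15.0% and 19.6% in CD4+ cells, where 4 of them gained. The comparison of gains with CD4+ cells therefore rests on few regions, and most gained regions were not analysed here in CD4+ cells.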

How the data were processed

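Whole-genome bisulfite libraries were mapped to mm10 with BISCUIT, and metilene divided the genome into regions and compared the genotypes, as the methods describe. FastQC is named in the submitters' processing notes. The authors deposited 1 table per cell type with mean methylation in percent for each group. The tables have no header, no value per mouse and 0 columns of per-sample values, so depth and error are unknown. Their columns of q-values, differences and p-values were not used.

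Differences were computed as WT minus Dnmt3aR878H/+. CpGs, GC content and exon bases were counted in GRCm38 and GENCODE M21, with NumPy 2.4.6, SciPy 1.17.1 and pandas 2.3.3 under Python 3.11.15, and plotted with matplotlib 3.10.9. Column 6 was read as listed cytosines of both strands, because every region starts on a CpG cytosine and 86.3% list more cytosines than CpG dinucleotides. The counting steps were checked on simulated data. No test was made. Of the listed regions, 2 had no mm10 chromosome sequence.

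Members, gene lists and thresholds were chosen with earlier results of these data known. Named were Dnmt3a, up to 4 losses and 4 gains at promoters per list, and the 10 largest losses and gains. The extremes per density class of listed cytosines were named among regions with more than 10 listed cytosines. Also named were the 5 genes with most losses and the 5 extremes on each side of the matched comparison. A few items that this rule names, and a sequence, are not reported here.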

Additional observations from a re-analysis of the deposited data

How the results depend on the processing

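No paired analysis was possible because the tables hold 1 mean per group. Lost regions were 27.3% of all above 10 points and 1.57% above 30 points, and gained ones 0.610% and 0.0780%. With more than 20 listed cytosines the shares were 21.1% and 1.07%. Among regions with no exon base, an alternative chosen after seeing the data, 0.0329% gained. The median loss over all regions was 6.65 points weighted by cytosines, 6.60 with more than 10 and 9.63 with more than 20.

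Loss shares followed the threshold. At above 10 points, above 30 points, more than 10 cytosines, more than 20 cytosines and above 25% of the WT mean, in that order, the lost share of sparse regions (under 1 listed cytosine per 100 bp, 2.03%) became 21.3%, 0.117%, 1.59%, 4.17% and 4.66%. That of dense regions (4 or more, 9.23%) became 26.3%, 2.86%, 12.0%, 35.7% and 18.9%, that of regions under 200 bp (7.44%) 22.4%, 2.13%, 7.98%, 11.9% and 17.5%, and that of regions of 1000 bp or more (5.96%) 27.2%, 1.08%, 6.77%, 15.4% and 10.50%. Dense regions lost in 8.43% by sequence CpGs and 9.73% without exon bases. Short regions thus lost more often than long ones at 20 and 30 points and less often at 10 points or with more than 20 cytosines. The gained share of dense regions (1.02%) was 2.57% above 10 points, 0.389% above 30 points, 1.73% with more than 10 cytosines and 6.83% with more than 20. It was 12.8% under 10% in WT, 2.35% by sequence CpGs and 0.161% without exon bases.

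The median promoter loss was 8.39 points weighted, 8.70 with more than 10 cytosines, 13.1 with more than 20 and 7.80 on autosomes. Genes with a lost promoter numbered 7654 above 10 points, 725 above 30 points and 1605 with more than 10 cytosines, and those with a gained promoter 1217, 267 and 412. The matched median was -0.223 points in 1688 pairs with more than 20 cytosines in both. Within 2 kb of a start, granule genes lost at 9 and gained at 1 (4 and 0 within 1 kb), myeloid surface receptors lost at 7 (4) and T cell markers at 5 (3). Above 10 points 77.3% of list members lost at a promoter, against 32.7% above 20. The cause of these shifts was not tested, apart from the thresholds themselves. Depth is unknown and limits every value.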

Other observations

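The mitochondrial genome, which is usually unmethylated, had 20 listed regions in CD11b+ cells, with medians of 15.1% in WT and 18.1% in Dnmt3aR878H/+ cells, and the mutant mean was higher in all 20. In CD4+ T cells 21 regions had medians of 13.8% and 8.56%, and none was higher. No gain or loss there exceeded 20 points.

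The X chromosome lost more than 20 points at 12.6% of its 4325 CD11b+ regions and at 11.8% of its 5438 CD4+ regions. CpG-dense promoters of the X chromosome, with 4 or more CpGs per 100 bp, had medians of 37.5% in WT and 20.9% in mutant CD11b+ cells over 341 regions. In CD4+ T cells the medians were 38.1% and 19.6% over 280 regions. The study pooled data of male and female mice, and the part of sex in these values was not tested. Autosomal promoters of the same density had medians of 4.50% in WT and 12.9% in mutant CD11b+ cells over 6101 regions. In CD4+ T cells the autosomal medians were 15.7% and 9.43%. The CD11b+ medians join density classes that differed in direction. Over promoters of all chromosomes, the mutant CD11b+ mean was higher in 25.4% of 3947 regions at 4 to 8 CpGs per 100 bp. Their median difference was 3.88 points, with the mutant lower. At 8 or more CpGs it was higher in 68.4% of 2500 regions, with a median difference of 4.75 points, the mutant higher.

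Short sequence motifs were counted on both strands in windows of 300 bp around each region's centre. The letters GAGGAA, the core that PU.1-type ETS factors bind, stood in 34.6% of lost and 27.4% of all windows. Among regions at 50% to 70% in WT and 2 to 4 CpGs per 100 bp, the shares were 35.3% with a loss above 20 points and 32.7% with a loss of 10 points or less. The Runx core TGTGGT stood in 22.3% of lost and 21.7% of all windows, and the GATA core AGATAA in 16.4% of both. The GC box GGGCGG stood in 48.8% of gained and 5.98% of all windows. Among dense regions under 10% in WT, the shares were 57.2% with a gain and 53.3% without.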
